A study of Mus musculus with 24 samples.

Results

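The genes described here encode 10 components of excitation-contraction coupling and of the calcium store of striated muscle. They were taken by gene name from a table of 28109 genes, and each name matched 1 gene: Cacna1s, Cacng1, Ryr1, Trdn, Jph2, Casq1, Casq2, Atp2a1, Atp2a2 and Sln. Their RNA was measured by RNA-seq in 24 libraries, in 12 groups of 2 replicates each. The paper calls the replicates biological, and what separates them (cultures or animals) is not given. Both cell types were transfected with siControl, which the labels name siLuc, or with siTead1/4, a combination of siRNA pools against Tead1 and Tead4, and the question was how silencing of these transcription factors changed gene expression before and during differentiation. RNA was prepared from undifferentiated cells 24 hours after transfection (day 0) and after 3 and 6 days in medium with 2% horse serum. C2C12 cells are an established myoblast line, labelled as strain C3H, and were grown in DMEM. Primary myoblasts (PMs), labelled as strain C57/B6, came from wild-type mice of 3 to 4 weeks of age and were plated on matrigel and kept in IMDM, so the cell type cannot be told apart from strain, medium and substrate. The siControl cells had also been transfected, and C2C12 is a single line.

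In skeletal muscle, depolarisation of the transverse tubule is sensed by a voltage-gated calcium channel, whose pore-forming subunit is Cacna1s and whose gamma subunit is Cacng1. This channel couples mechanically to the ryanodine receptor Ryr1 in the facing membrane of the sarcoplasmic reticulum, and Ryr1 then releases calcium that sets off contraction. Junctophilins such as Jph2 hold the facing membranes together, triadin (Trdn) anchors calsequestrin beside Ryr1, and the calsequestrins Casq1 and Casq2 bind the stored calcium. Calcium is pumped back by the ATPases Atp2a1 (SERCA1) and Atp2a2 (SERCA2), which the small membrane protein sarcolipin (Sln) inhibits. In adult muscle Atp2a1 is the form of fast fibres, and Atp2a2 that of heart and slow fibres. Casq1 is the calsequestrin of fast fibres and is present in slow fibres too, and Casq2 is found in heart and slow fibres.

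TEAD factors bind the MCAT element, and the myogenic factors that act beside them bind E-boxes, so the sequence before the start of these genes is of interest. RefSeq promoter windows on GRCm38.p6, which run from 250 bases before to 50 bases after a gene's start, were at hand for 6 of the 10 genes, and those of Cacng1, Trdn, Atp2a2 and Sln were not analysed here. The files use the older build mm9. The window positions below are on GRCm38.p6, and the gene positions in later paragraphs are on mm9. The 3 windows shown are those of the calsequestrin paralogues and of Cacna1s, whose window alone held the MCAT letters. Capitals mark matches on either strand to the MCAT core (CATTCC or GGAATG), to the E-box (CANNTG) and to the MEF2 motif.
Casq1, minus strand, chr1:172219846-172220145: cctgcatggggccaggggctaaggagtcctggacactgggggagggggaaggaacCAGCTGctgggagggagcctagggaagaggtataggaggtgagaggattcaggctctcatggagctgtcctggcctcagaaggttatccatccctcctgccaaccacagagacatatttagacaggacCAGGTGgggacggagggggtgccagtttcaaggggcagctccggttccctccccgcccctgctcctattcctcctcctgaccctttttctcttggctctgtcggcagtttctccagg
Casq2, plus strand, chr3:102086165-102086464: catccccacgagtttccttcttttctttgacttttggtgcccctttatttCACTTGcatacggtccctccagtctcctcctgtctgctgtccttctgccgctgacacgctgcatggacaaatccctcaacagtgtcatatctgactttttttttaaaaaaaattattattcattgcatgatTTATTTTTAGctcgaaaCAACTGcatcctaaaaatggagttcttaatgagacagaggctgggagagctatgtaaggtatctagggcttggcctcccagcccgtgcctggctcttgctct
Cacna1s, plus strand, chr1:136052561-136052860: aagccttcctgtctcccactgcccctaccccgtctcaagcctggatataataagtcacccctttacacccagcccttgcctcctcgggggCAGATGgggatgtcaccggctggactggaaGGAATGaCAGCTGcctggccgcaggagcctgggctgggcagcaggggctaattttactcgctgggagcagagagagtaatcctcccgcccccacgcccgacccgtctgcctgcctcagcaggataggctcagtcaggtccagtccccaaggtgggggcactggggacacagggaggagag
The MCAT letters were found in 1 of the 7 windows of these genes (Jph2 has 2 windows that overlap) and in 14.7% of all 32851 windows of the same length. In the Cacna1s window they lay 1 base before an E-box of the form CAGCTG. The general E-box was found in 6 of the 7 windows and in 72.3% of all windows. Its form CAGCTG, which is counted among the general matches too, was found in 5 of the 7 windows and in 16.3% of all windows. The 5 windows were those of Atp2a1, Cacna1s, Casq1 and Jph2, and the 2 Jph2 windows held the same match. A MEF2 motif was found in the window of Casq2 and in 3.19% of all windows. These matches are descriptions of the letters in short windows and say nothing about binding, and the Ryr1 window held none of the motifs. In the paper most Tead4 sites of C2C12 cells lay far from a start site, and windows this short do not cover such sites.

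The libraries held 25453830 to 52784510 counted reads. Levels are given as CPM, the counts of a gene relative to the size of its library, with library sizes scaled by the TMM method over all 24 libraries, and 3 counts corresponded to 0.0533 to 0.11 CPM, a floor that covers counting error only. Tests were made with edgeR on all genes that passed the filter on low counts, and a gene was called when its Benjamini-Hochberg adjusted p was under 0.05 and its log2 fold change was over 1 in size. Tead4 was lower in all siTead1/4 libraries than in the siControl libraries of the same cell type and day, with log2 fold changes of -1.28 to -2.58, and the change was called in C2C12 cells at days 0 and 3 and in PMs at days 0, 3 and 6. Tead1 was called lower only in PMs at days 0 and 3, and in C2C12 cells at day 0 its 2 siTead1/4 libraries stood at 28.8 and 4.50 CPM. Its log2 fold change in C2C12 cells was -1.09 at day 3 (adjusted p 0.501 by edgeR) and -0.52 at day 6 (adjusted p 0.945). The day 6 libraries overlapped, with 70.6 and 77.0 CPM in siTead1/4 cells and 76.0 and 136 CPM in siControl cells. A reduction of Tead1 RNA was thus not shown in C2C12 cells at day 6. The summed level of 7 myogenic markers was 1370 to 1590 CPM in C2C12 siControl cells at day 0 and 5840 to 5920 CPM in PMs. At day 3 it was 3790 to 5220 CPM in C2C12 siTead1/4 cells against 6680 to 6950 CPM in siControl cells. Fibroblast markers summed to 552 to 3880 CPM in both cell types, with Lum under 1 CPM in 11 of 12 groups, pericyte markers summed to 136 to 506 CPM, with Kcnj8 under 1 CPM in all groups, and endothelial, macrophage and Schwann cell markers summed to at most 17.7 CPM. In bulk RNA, fewer cells that had differentiated and less RNA of a gene per cell cannot be told apart.

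The calcium handling genes rose steeply when siControl cells differentiated, and on the log2 scale 8 of the 9 genes tested in both cell types gained more in C2C12 cells, where most of them started near 0, than in PMs by day 3. This difference in gain was not tested. Of the 10 genes 9 passed the filter in C2C12 cells, and all 9 were called up at day 3 over day 0, where 16% of all 15303 tested genes were called up, and again at day 6, where 17.1% were. Their median log2 fold change was 7.11 at day 3 and 7.99 at day 6, beside -0.01 over all tested genes at either time. In PMs all 10 genes were tested and 9 were called up, at day 3 beside 17.5% and at day 6 beside 20.2% of 16144 genes, with medians of 2.57 and 2.64. The gene not called was Jph2, which gained 0.43 at day 3 (SE 0.14, adjusted p 0.0216) and 0.35 at day 6 (adjusted p 0.0515).

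The L-type channel genes differed from each other at the outset. Cacna1s (mm9 chr1:137949327-138016399) was at 2.14 and 0.586 CPM in the 2 C2C12 siControl libraries at day 0. It was at 403 and 474 CPM at day 3 and at 419 and 586 CPM at day 6, with overlapping ranges. In PMs it was already at 132 and 151 CPM at day 0 and reached 803 and 927 CPM at day 3. Its log2 gain by day 3 was 8.34 in C2C12 cells (SE 0.69, adjusted p 1.58e-05) and 2.56 in PMs (SE 0.20, adjusted p 2.56e-06). The gamma subunit gene Cacng1 (chr11:107564532-107577836) was not low in undifferentiated C2C12 cells, with 43.9 and 43.0 CPM, and gained 2.53 by day 3 (SE 0.43, adjusted p 0.00129). Per kilobase of gene length, Cacng1 RNA exceeded Cacna1s RNA 107- and 382-fold in the C2C12 siControl libraries at day 0, and 3.59- and 2.61-fold at day 3. In PMs the ratio went from 3.39 and 2.95 at day 0 to 2.18 and 1.60 at day 3.

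Of the release complex, Ryr1 and Trdn were low in undifferentiated C2C12 cells, as Cacna1s was, and Jph2 was not. Ryr1 (chr7:29788359-29910170) was at 7.26 and 5.12 CPM in C2C12 siControl cells at day 0 and at 602 and 890 CPM at day 3. In PMs it went from 409 and 341 to 2500 and 2163 CPM. Trdn (chr10:32803289-33196515), the anchor of calsequestrin, had its level at day 6 above that at day 3 in C2C12 cells, with 33.8 and 35.7 CPM at day 3 and 80.0 and 87.3 CPM at day 6 after 0.281 and 0.213 CPM at the start. It was the only 1 of the 9 genes with an unadjusted p under 0.05 for day 6 over day 3 in C2C12 cells, where edgeR called none of these genes and 0% of all genes, with 406 genes at an unadjusted p under 0.05, and DESeq2 called none of these genes. Its gain there was 1.27 (SE 0.32, adjusted p 1). In PMs none of the 10 genes was called for day 6 over day 3 by edgeR or by DESeq2, 3 had an unadjusted p under 0.05 with either tool, and 2.8% of all genes were called. Jph2 (chr2:163161978-163223729) went from 89.3 and 84.3 to 566 and 575 CPM in C2C12 cells by day 3. In PMs it stood at 388 and 393 CPM before differentiation began and at 522 and 574 CPM at day 3, so its PM libraries at day 0 were above the C2C12 libraries of that day and below all siControl libraries of days 3 and 6.

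**Figure D1:**
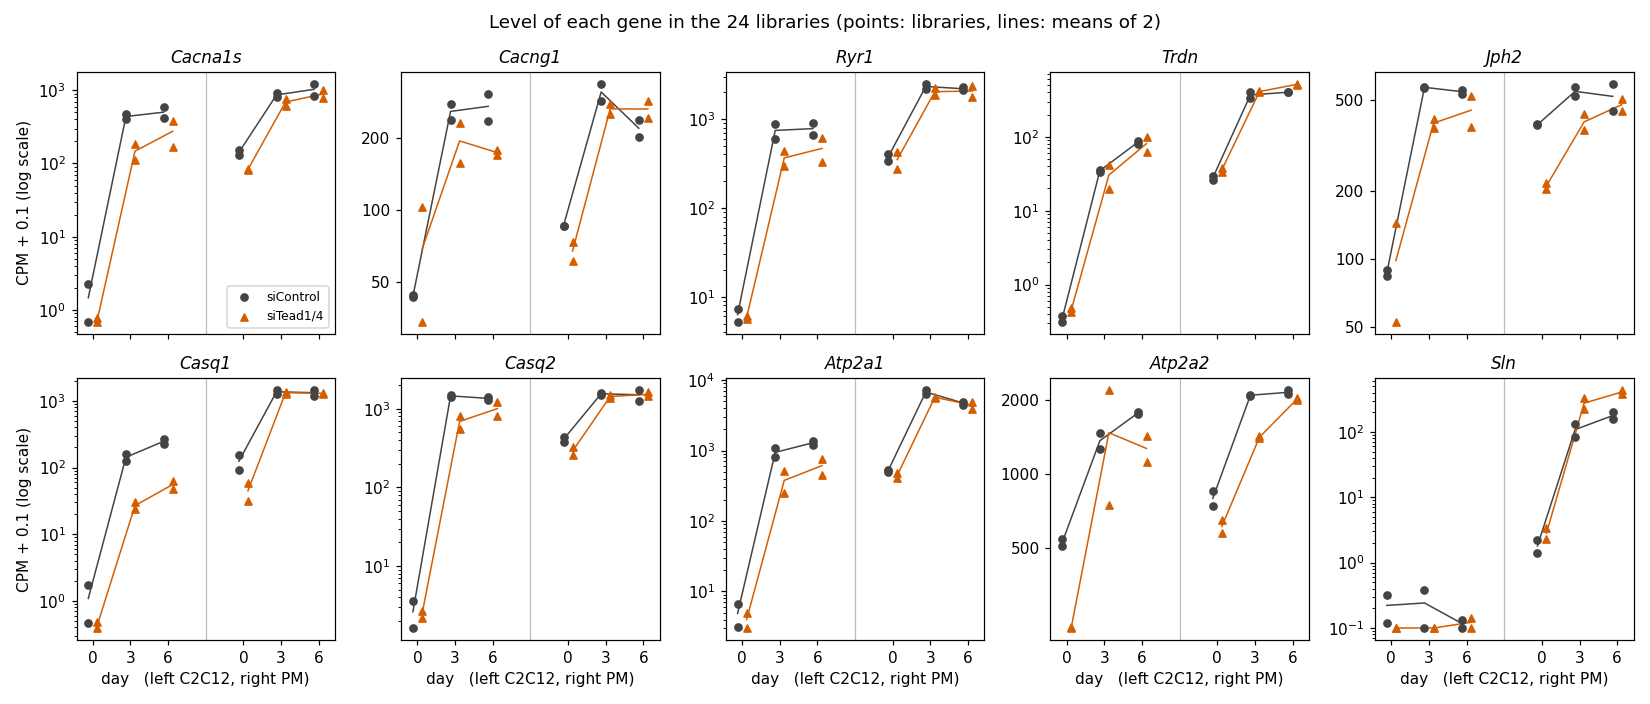
Level of each of the 10 genes (vertical axis, CPM plus 0.1, log scale with its own range in each panel) against day of differentiation in C2C12 cells (left of the grey line) and PMs (right), with dots for siControl libraries, triangles for siTead1/4 libraries and lines through the means of 2. Most genes start far lower in C2C12 cells than in PMs, Casq1 triangles lie below the dots at days 3 and 6 in C2C12 cells but not in PMs, and Sln stays at the bottom in C2C12 cells.

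The calsequestrins reached unlike proportions in the 2 cell types. Casq2 (chr3:101890338-101950437) rose from 3.52 and 1.53 to 1423 and 1495 CPM by day 3 in C2C12 siControl cells, a log2 gain of 9.15 (SE 0.50, adjusted p 2.77e-06) that was larger than that of the other 8 genes tested. In PMs it rose from 435 and 382 to 1497 and 1609 CPM, so that the levels of the cell types at day 3 differed by 0.09 on the log2 scale (SE 0.28, adjusted p 0.822). Casq1 (chr1:174140025-174150026) rose in C2C12 siControl cells from 1.60 and 0.373 to 125 and 161 CPM at day 3 and to 227 and 267 CPM at day 6. In PM siControl cells Casq1 rose from 156 and 92.2 to 1459 and 1275 CPM at day 3. Per kilobase, Casq1 made up 10.9% and 13.1% of the calsequestrin RNA in C2C12 siControl libraries at day 3, and 57.8% and 52.7% in PM siControl libraries. Reads of a long noncoding gene on the opposite strand, Gm17224, overlap Casq1 and were at most 116 counts in any library.

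A similar difference was found in the pump pair. Atp2a2 (chr5:122903531-122952183), which many cell types use, was at 509 and 545 CPM in undifferentiated C2C12 cells and gained 1.34 by day 3 (SE 0.39, adjusted p 0.0212), which was the smallest gain of the 9 genes. This call was lost without any 1 of the 4 libraries compared, with values of 1.22 to 1.45 and adjusted p of 0.0533 to 0.106. Atp2a1 (chr7:133589372-133606622) rose from 6.53 and 3.04 to 808 and 1076 CPM, and it shares part of its locus with Rabep2. Rabep2 had at most 2894 counts in any library, and Atp2a1 had 232 and 171 counts in the C2C12 siControl libraries at day 0. The part of Rabep2 reads in these Atp2a1 levels was not tested. In PM siControl cells Atp2a1 rose from 536 and 501 to 7248 and 6273 CPM at day 3 and was lower again at day 6, with 4924 and 4495 CPM, a difference of -0.53 between those days (SE 0.15, adjusted p 0.0615). Per kilobase, Atp2a1 made up 2.05% and 0.901% of the pump RNA in C2C12 siControl cells at day 0, and by day 3 its share was 51.0% and 54.4%. The shares of 52.1% and 56.3% at day 6 were close to those of day 3. In PM siControl cells its share was 50.6% and 52.4% at day 0. By day 3 it was 85.0% and 82.9%, and the libraries of day 6, with 79.1% and 77.0%, lay between. PM libraries at day 0 thus had about the Atp2a1 share that C2C12 cells reached after 3 days. The part of cells already differentiated in PM cultures at day 0 was not measured.

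The pump inhibitor gene Sln (chr9:53698058-53701651) had few or no counts in C2C12 cells at any day and was abundant in differentiated PMs. In the 12 C2C12 libraries it had 0 counts in 7 and 1 to 12 counts in the other 5, and it did not pass the filter there. In PM siControl cells it went from 62 and 74 counts (1.31 and 2.08 CPM) at day 0 to 83.7 and 133 CPM at day 3 and 155 and 200 CPM at day 6. Its log2 gain in PMs was 5.96 by day 3 (SE 0.35, adjusted p 4.17e-07) and 6.67 by day 6 (SE 0.36, adjusted p 2.05e-07), above that of the other 9 genes. At day 6, against the floor of 3 counts per library, Sln was at least 2254-fold higher in PM than in C2C12 siControl cells.

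In the order of levels per kilobase at day 3, Casq2 led in C2C12 siControl cells with a mean of 554 CPM per kilobase, ahead of Atp2a1 (270 CPM per kilobase) and Atp2a2 (241 CPM per kilobase), whose ranges overlapped. Trdn was far lower at 7.54 CPM per kilobase, and Sln was last. In PM siControl cells Atp2a1 led with 1941 CPM per kilobase, followed by Casq1 with 730, Casq2 with 590 and Atp2a2 with 369 CPM per kilobase, with no overlap between neighbours. From Cacng1 (248 CPM per kilobase) through Sln, Ryr1 and Cacna1s to Jph2 (129 CPM per kilobase) each gene overlapped the next, and Trdn was last with 80.2 CPM per kilobase.

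Tested directly in siControl cells, PMs had more RNA of most of these genes at day 0 and of 5 of them at days 3 and 6. At day 0, 8 of the 10 genes were called higher in PMs, beside 16.3% of 16926 genes, and the median difference was 6.35 on the log2 scale. Cacng1 (0.98, adjusted p 0.0247) and Atp2a2 (0.60, adjusted p 0.133) were not called. This difference was not particular to calcium handling genes. Of 34 tested sarcomere genes, a list described below, 32 were called higher in PMs at day 0, with a median of 6.35. At day 3 the 5 genes called higher in PMs were Ryr1, Trdn, Casq1, Atp2a1 and Sln, beside 17.2% of all genes, and these 5 were called also at day 6, where 15.7% of the genes were. The difference at day 3 was 3.41 for Trdn (SE 0.27, adjusted p 5.95e-08), 3.26 for Casq1 (SE 0.40, adjusted p 7.03e-06), 2.84 for Atp2a1 (SE 0.37, adjusted p 1.27e-05) and 1.64 for Ryr1 (SE 0.31, adjusted p 0.000393). For Jph2 it was -0.06 (adjusted p 0.892), and for Cacna1s 0.98 (SE 0.40, adjusted p 0.0542). The myogenic markers were higher in PMs too, as given above, and their part in these differences was not tested.

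**Figure D2:**
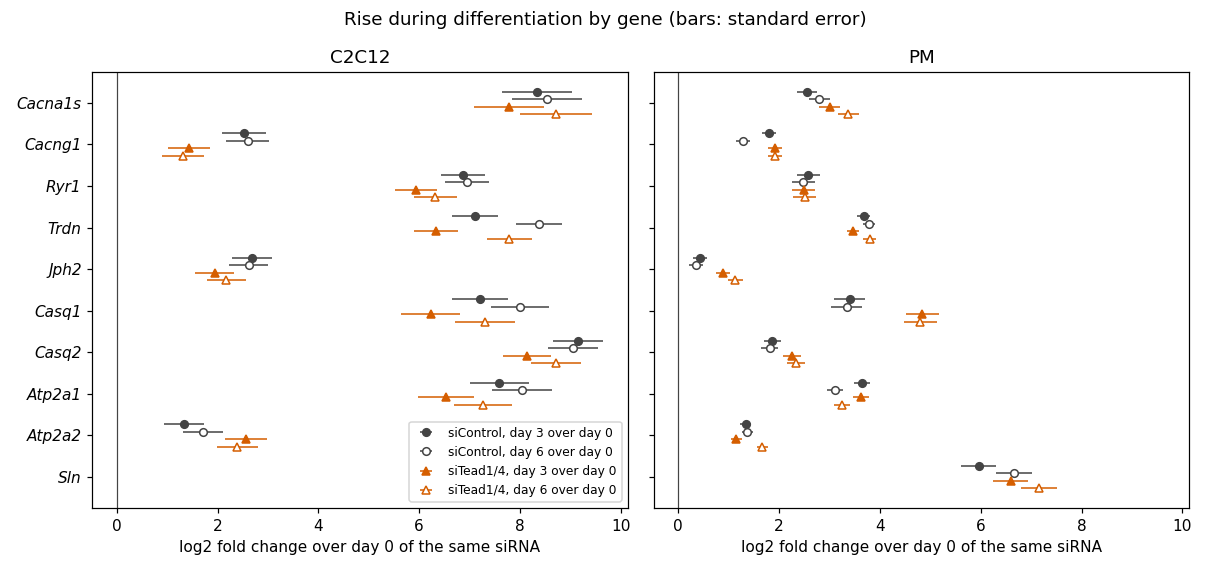
Log2 fold change of each gene at day 3 (filled) and day 6 (open) over day 0 of the same siRNA (horizontal axis), in C2C12 cells (left) and PMs (right), with dots for siControl, triangles for siTead1/4 and bars for the standard error. In siControl C2C12 cells 6 genes gained 6.88 to 9.15, while in siControl PMs no gene other than Sln gained more than 3.79.

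After transfection of C2C12 cells with siTead1/4, differentiation still raised every tested gene of the set. Casq1 was the member that stayed farthest below its siControl level. In siTead1/4 C2C12 cells all 9 tested genes were called up at day 3 over day 0, beside 13.8% of all genes, and at day 6, beside 14.4%, with medians of 6.23 and 7.27. Against siControl at the same day, 1 of the 9 genes was called at day 3, where 1.27% of all genes were called, and it was Casq1. Its 2 siTead1/4 libraries at day 3 had 30.1 and 23.5 CPM, well below the siControl libraries at 125 and 161 CPM. The fold change was -2.44 on the log2 scale (SE 0.44, adjusted p 0.0327). The call rested on 2 libraries per group: without siControl replicate 1, siControl replicate 2 or siTead1/4 replicate 2 the value was -2.62, -2.24 or -2.26, with an adjusted p of 0.12, 0.206 or 0.136.

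At day 6 the Casq1 libraries were as far apart, with 48.3 and 62.4 CPM in siTead1/4 cells and 227 and 267 CPM in siControl cells, and the fold change was -2.15 (SE 0.43, adjusted p 0.143). None of the 9 genes was called by edgeR at day 6, where 0.0457% of all genes were called. At this day 2 of the 9 genes had an unadjusted p under 0.05, and DESeq2 called 1 gene, Casq1, with an adjusted p of 0.000389. At day 0 edgeR and DESeq2 called none of the 9 genes, 2 had an unadjusted p under 0.05 with either tool, and 0.438% of all genes were called.

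The other members moved less in C2C12 cells and mostly the same way. At day 3, 8 of the 9 fold changes were below 0, with a median of -1.06 beside 0.01 over all tested genes, and at day 6 all 9 were below 0, with a median of -0.64. For 7 of the 9 genes both siTead1/4 libraries at day 3 lay below both siControl libraries, as they did for 23.6% of all tested genes, and at day 6 this held for 8 of 9 genes, beside 21% of all tested genes. Cacna1s was at 111 and 183 CPM in siTead1/4 cells at day 3 against 403 and 474 CPM, a fold change of -1.60 (SE 0.50, adjusted p 0.165). Atp2a1 was at 251 and 504 against 808 and 1076 CPM (-1.35, adjusted p 0.18). For these genes the groups did not overlap. Casq2 was at 560 and 821 against 1423 and 1495 CPM (-1.11, adjusted p 0.169). Ryr1 was at 297 and 434 against 602 and 890 CPM (-1.06, adjusted p 0.171). Beside these, edgeR on all 24 libraries and DESeq2 each called 4 genes at this day rather than 1. The C2C12 siTead1/4 replicates were the least alike of all groups, with an SD of the log2 difference between replicates of 0.629 to 0.737 against 0.417 to 0.57 in the other groups. The summed myogenic markers were lower in these cells as well, as given above, and their part in these results was not tested.

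Atp2a2 showed how far these replicates could differ. Its siTead1/4 libraries at day 3 stood at 746 and 2203 CPM on either side of the siControl libraries at 1263 and 1472 CPM, and the fold change was 0.07 (SE 0.39, adjusted p 0.967). Without siTead1/4 replicate 2 it was -0.88. At day 0 both siTead1/4 libraries were at 238 and 236 CPM against 509 and 545 CPM, a change of -1.15 that was not called (SE 0.39, adjusted p 0.301). Trdn was the gene least changed at day 6, with 63.2 and 98.8 CPM around the siControl values of 80.0 and 87.3 CPM.

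**Figure D3:**
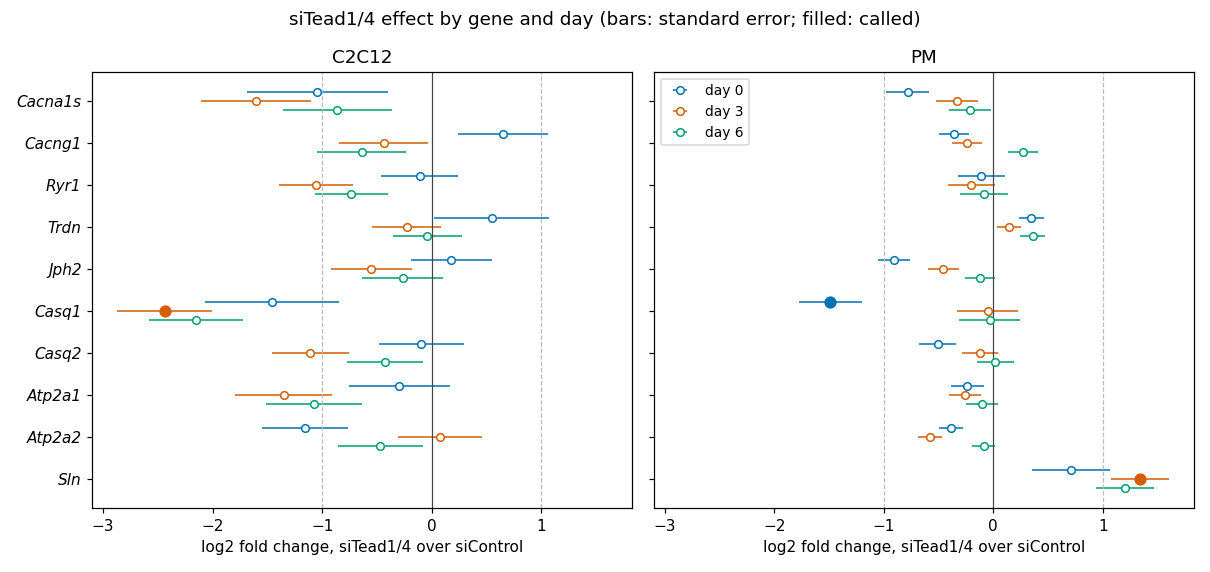
Log2 fold change of siTead1/4 over siControl (horizontal axis) for each gene at days 0, 3 and 6 in C2C12 cells (left) and PMs (right), with bars for the standard error, filled points for called changes and dashed lines at a log2 fold change of 1 in size, where Sln is not drawn for C2C12 cells. Casq1 lies near -2 in C2C12 cells at days 3 and 6 and near 0 in PMs at those days, while Sln lies above 0 in PMs at all 3 days.

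In PMs siTead1/4 cells had less Casq1 RNA before differentiation and more Sln RNA at day 3. At day 0, 1 of the 10 genes was called, where 2.6% of all genes were called, and it was again Casq1, with 58.1 and 31.2 CPM in siTead1/4 libraries against 156 and 92.2 CPM in siControl libraries. The fold change was -1.49 (SE 0.29, adjusted p 0.0132). Without siControl replicate 1 it was -1.05 (adjusted p 0.119), and without siTead1/4 replicate 2 it was -1.11 (adjusted p 0.0775). With all 24 libraries in the fit its adjusted p was 0.0564. Fibroblast markers summed to 809 to 868 CPM in these siTead1/4 libraries and 552 to 566 CPM in the siControl libraries, and pericyte markers to 224 to 233 CPM and 158 to 170 CPM. The part of either in the result was not tested. From day 3 on the Casq1 libraries of the groups interleaved, with 1286 and 1366 CPM against 1459 and 1275 CPM at day 3 and 1304 and 1285 CPM against 1201 and 1448 CPM at day 6. The fold changes were -0.05 at day 3 (SE 0.28, adjusted p 0.94) and -0.03 at day 6 (SE 0.28, adjusted p 0.989).

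Other members were lower in undifferentiated siTead1/4 PMs by less than the fold required. Jph2 was at 216 and 204 CPM against 388 and 393 CPM (-0.91, SE 0.14, adjusted p 0.00539), and Cacna1s at 80.5 and 84.9 against 132 and 151 CPM (-0.78, SE 0.19, adjusted p 0.0363). Both siTead1/4 libraries lay below both siControl libraries for 7 of the 10 genes at day 0, beside 29.8% of all tested genes, and the median of the 10 genes was -0.38. Trdn stood the other way, at 37.7 and 33.4 CPM against 29.2 and 26.3 CPM (0.35, adjusted p 0.0952). At day 3 Atp2a2 was at 1401 and 1428 CPM against 2088 and 2103 CPM, a change of -0.58 (SE 0.11, adjusted p 0.0112) with groups well apart, and at day 6 its fold change was -0.09 (adjusted p 0.849).

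Sln was the only member called at day 3 in PMs, where 3.3% of all genes were called, and it was higher after silencing. It was at 226 and 325 CPM in siTead1/4 libraries against 83.7 and 133 CPM in siControl libraries. The fold change was 1.34 (SE 0.27, adjusted p 0.0145). Without siControl replicate 1 it was 1.04 (adjusted p 0.114), without siTead1/4 replicate 2 it was 1.05 (adjusted p 0.1), and with all 24 libraries in the fit its adjusted p was 0.134. At day 6 Sln was at 377 and 440 CPM against 155 and 200 CPM, again with no overlap (1.20, SE 0.26, adjusted p 0.0612). Without a block for the replicate number, edgeR called none of the 10 genes at day 6, where 0.743% of all genes were called. At that day 2 of the 10 genes had an unadjusted p under 0.05, and the fit with such a block is given below. DESeq2 called 1 gene at day 6, which was Sln (adjusted p 0.00074). At day 0 the gene was at 2.21 and 3.24 CPM against 1.31 and 2.08 CPM (0.71, adjusted p 0.27).

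Within siTead1/4 PMs, 9 of the 10 genes were called up at day 3 over day 0, beside 15.9% of all genes, and all 10 at day 6, beside 18.2%. The gain of Casq1 by day 3 was 4.84 in siTead1/4 PMs (SE 0.33, adjusted p 1.25e-06) and 3.40 in siControl PMs (SE 0.31, adjusted p 5.96e-06). Jph2, which gained little in siControl PMs, gained 0.88 by day 3 and 1.13 by day 6 in siTead1/4 PMs (SE 0.14, adjusted p 6.1e-05 at day 6). Both genes thus started lower and reached the siControl range by day 6. The difference between these gains was not tested.

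The difference between the cell types in the siTead1/4 effect was tested for each gene. At day 3 it was called for 1 of the 10 genes, Casq1, where 1.25% of all genes were called: the effect in PMs exceeded that in C2C12 cells by 2.37 on the log2 scale (SE 0.53, adjusted p 0.0369). Leaving out any library of the day other than C2C12 siTead1/4 replicate 1 took the call away, with values of 2.18 to 2.55. Without that replicate the difference for Atp2a2 was -1.27, opposite in direction to Casq1. The Atp2a2 value then rested on replicate 2 alone for C2C12 siTead1/4 cells. At day 6 the Casq1 difference was 2.12 (SE 0.53, adjusted p 0.263). No gene of the set was called by edgeR at day 6, beside 0.0354% of all genes, with 1 gene at an unadjusted p under 0.05 and 1 gene (Casq1) called by DESeq2. At day 0 edgeR and DESeq2 called none, beside 0.00591% of all genes, with 2 and 3 genes at an unadjusted p under 0.05, and 2 genes were called by edgeR without C2C12 siTead1/4 replicate 1. The fit also holds Sln, but its C2C12 counts are too low for a difference to be read.

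The make-up of the calsequestrin and pump pairs also differed between siTead1/4 and siControl libraries in C2C12 cells at days 3 and 6, and in PMs only in part. Casq1 made up 7.02% and 3.87% of calsequestrin RNA per kilobase in C2C12 siTead1/4 libraries at day 3 and 7.81% and 6.78% at day 6. These were below the siControl shares of 10.9% and 13.1% at day 3 and of 19.8% and 20.9% at day 6. At day 0 the Casq1 share in C2C12 cells was 17.1% and 16.5% in siTead1/4 and 39.1% and 25.5% in siControl libraries. Those day 0 shares rest on 8 to 57 Casq1 counts per library. The Atp2a1 share was 35.4% and 27.2% in siTead1/4 libraries at day 3 and 39.9% and 46.6% at day 6, below all siControl libraries of the same day. The 27.2% was that of replicate 2, where Atp2a2 stood at 2203 CPM, above both siControl libraries. In replicate 1, with 35.4%, Atp2a2 stood at 746 CPM, below both. The shares at day 3 thus came with replicates that differed widely in Atp2a2. In PMs the Casq1 share was 20.1% and 14.7% in siTead1/4 libraries at day 0 against 33.6% and 25.3% in siControl libraries, and at day 3 it was 54.7% and 58.3% against 57.8% and 52.7%. The Atp2a1 share of PMs was 86.4% to 87.1% in siTead1/4 libraries at day 3, just above the siControl libraries. At day 6 the PM groups overlapped in both shares. Casq1 was then at 56.1% and 52.8% against 57.0% and 53.9%, and Atp2a1 at 80.0% and 75.4% against 79.1% and 77.0%. With 2 libraries per group an exact permutation test of a share could not pass the threshold, and none was made.

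**Figure D4:**
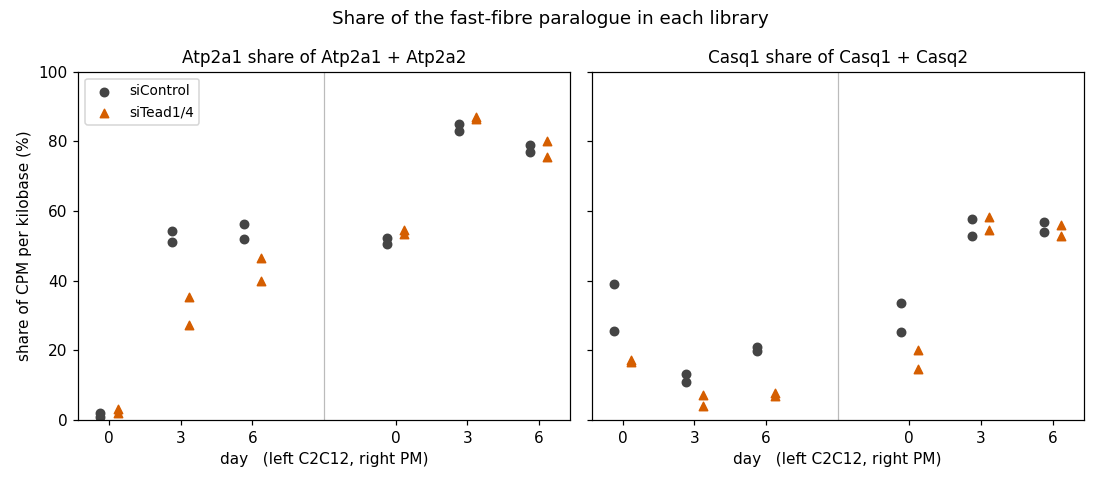
Share of the fast-fibre form in each paralogue pair (vertical axis, percent of CPM per kilobase) in every library, for Atp2a1 among both pumps (left) and Casq1 among both calsequestrins (right), with C2C12 cells left and PMs right of the grey line. Triangles of siTead1/4 libraries lie below the siControl dots at days 3 and 6 in C2C12 cells. At day 0 they do so for Casq1 alone, in both cell types, with few Casq1 counts in C2C12 cells.

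A wider list of 55 genes of calcium cycling, without the 10 members, was described in the same way, and 54 of its names were in the table. In C2C12 cells 45 were tested, and siTead1/4 changed 2 of them at day 3, both down, beside 1.08% of all genes called down. By edgeR none was called at day 0 or 6. The list's median at day 3 was -0.44 beside 0.01 for all genes. Sypl2 (mitsugumin 29), a protein of the triad junction, was at 0.496 ± 0.215 CPM (SD, n = 2) against 4.83 ± 1.03 CPM, a change of -3.30 (SE 0.61, adjusted p 0.0339 by edgeR). Camk2a, a calcium- and calmodulin-dependent kinase, was at 50.9 ± 23.0 against 156 ± 22.8 CPM (-1.64, SE 0.33, adjusted p 0.0456).

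In PMs 52 genes of the list were tested, and 1 was called down at day 0, beside 1.1% of all genes, 2 were called up at day 3, beside 2.1%, and none was called at day 6. The list's median at day 3 was -0.03. The genes that rose were Slc8a3, a sodium-calcium exchanger, at 56.8 ± 1.19 against 27.9 ± 8.38 CPM (SD, n = 2), with a fold change of 1.02 (SE 0.25, adjusted p 0.0359 by edgeR), and Ryr2, the ryanodine receptor of the heart. Ryr2 had 58 and 24 counts in siTead1/4 libraries and 1 count in each siControl library, a ratio of 35.5 with a 95% counting interval of 9.53 to 298, and its mean level of 0.921 CPM was low. The gene called down at day 0, named here after its value was seen, was Cav3, the caveolin of muscle membranes, with 14.9 ± 2.16 against 52.95 ± 5.54 CPM (-1.83, SE 0.32, adjusted p 0.00877 by edgeR). No gene of the list was called by siTead1/4 in both cell types. The siTead1/4 effect at day 3 differed between the cell types for 4 of 52 genes, with the effect higher in PMs in each case, beside 1.02% of all genes called in that direction. Among them were Sypl2, Camk2b and Camk2d, also named after their values were seen. Camk2d was at 167 ± 6.29 against 125 ± 2.55 CPM in PMs and at 81.3 ± 14.2 against 124 ± 16.8 CPM in C2C12 cells (difference 1.02, SE 0.20, adjusted p 0.0164 by edgeR).

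During differentiation of siControl cells, 23 of 45 list genes were called up and 1 down by day 3 in C2C12 cells, beside 16% of all genes up and 12.7% down. In PMs 25 of 52 were called up and 3 down, beside 17.5% up and 14.9% down. Calm2, a calmodulin gene, was among those called down in both cell types, with log2 fold changes of -1.03 in C2C12 cells and -1.71 in PMs. A list of 35 sarcomere genes, given for comparison, had 34 tested genes in either cell type. In siControl cells 32 of the 34 were called up by day 3 in C2C12 cells and 30 in PMs, with medians of 7.85 and 2.47. At day 3, 7 of them were called down and none up by siTead1/4 in C2C12 cells, with a median of -1.39, and 6 down and 1 up in PMs, with a median of -0.35, beside 1.08% of all genes called down in C2C12 cells and 1.2% down and 2.1% up in PMs. The calcium handling members with their medians of -1.06 and -0.22 stand beside these values, and the lists were not tested against each other.

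Over all 24 libraries, which share the rise with differentiation, each member had genes with a nearly parallel course, and these correlations are descriptions only. Among the nearest by Pearson's r of log2 CPM were Neb (0.996) for Ryr1, Trim72 (0.997) and Lmod2 (0.994) for Cacna1s, and Asb16 (0.992) and Hhatl (0.992) for Trdn. Those of Casq1 were Mybpc1 (0.991) and Pygm (0.989), and Pygm (0.995) was also the nearest to Atp2a1, followed by Ablim3 (0.994). For Casq2 they were Mylpf (0.994) and Scn4a (0.993). The members with a level in undifferentiated cells had looser neighbours, with Strn3 (0.979) and Eda2r (0.966) for Atp2a2, Stk25 (0.974) and Atp6v1e1 (0.969) for Cacng1, and Ccdc88c (0.973) and Tmem182 (0.964) for Jph2. For Sln they were Sdk2 (0.989) and Rcsd1 (0.983).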

How the data were processed

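RNA-seq libraries of polyadenylated RNA were made by the authors from C2C12 cells and PMs and the kit they used does not mark the strand. The submitters' processing notes name CASAVA 1.8.2, TopHat2 2.0.10, Bowtie2 2.1.0, HTSeq 0.6.1, DESeq2 1.8.1 and the build mm9, and the annotation release is not given in the sources used here. The deposited table holds raw read counts per gene, without normalization, which were used here, and values that the authors scaled, which were not. It also has 36 columns of 12 libraries that are not among the listed samples and were not used. Gene lengths were taken from the table to express levels per kilobase.

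Tests on the counts used edgeR 4.0.16 under R 4.3.3 (filterByExpr, TMM, glmQLFit, glmQLFTest), with 1 mean per group. C2C12 cells and PMs were fitted apart (12 libraries each) for comparisons within a cell type, and all 24 libraries together for levels and comparisons between cell types. P-values were adjusted with the Benjamini-Hochberg method over all tested genes of a comparison, standard errors are the absolute log2 fold change divided by the square root of the F statistic, and DESeq2 1.42.0 was an alternative. The scripts were tested on simulated data. The other alternatives were RLE size factors, no filter, no fold threshold, a replicate block, other sets of libraries in the fit and leaving out each replicate. The p-values measure the spread between replicates. The paper's methods call the replicates biological. No source says whether they came from separate animals or cultures, so what this spread covers is not known. Correlated genes were ranked on log2 CPM with a prior count of 2. Named were the 10 members, Tead1 and Tead4, the 2 genes most correlated with each member, and genes of the calcium cycling list called by siTead1/4 in both cell types or, at most 3 per cell type, with the largest change at day 3. Some genes that this rule or a count covers are not reported here. The members and lists were chosen with earlier results of these data known. Promoter sequences are from RefSeq. Reads of overlapping genes and of opposite strands could not be separated. Library totals were 25453830 to 52784510 counts, and for genes near the floor of 3 counts per library the depth limits the precision.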

Additional observations from a re-analysis of the deposited data

Results flagged for a closer look

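The siTead1/4 effect on Casq1 at day 3 differed between the cell types, by a test of the difference itself: the effect in PMs was higher than that in C2C12 cells by 2.37 on the log2 scale (adjusted p 0.0369 by edgeR). This call was lost when any library of the day other than C2C12 siTead1/4 replicate 1 was left out, with values of 2.18 to 2.55. At day 6 the difference was 2.12 and was not called (adjusted p 0.263 by edgeR). Casq1 RNA was lower in both siTead1/4 C2C12 libraries than in both siControl libraries, while the PM libraries of the 2 groups interleaved. Beside it, the myogenic markers summed to 3790 to 5220 CPM in siTead1/4 and 6680 to 6950 CPM in siControl C2C12 cells, and to 8820 to 9670 and 10800 to 11100 CPM in PMs, and their part in the result was not tested. No group had the 4 samples that a search for single outlying samples needs.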

How the results depend on the processing

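With 2 replicates per group, the siTead1/4 calls depended on the settings, while the calls for differentiation stayed close to their counts. Without a fold threshold 3 of the 10 genes were called in PMs at day 0 and 2 at day 3. Without the filter on low counts the siTead1/4 counts in C2C12 cells were 2, 5 and 2 at days 0, 3 and 6, that in PMs at day 6 was 1, day 6 against day 3 in siControl C2C12 cells gave 1, and the difference between cell types gave 4 at day 3 and 1 at day 6. That fit tests 25008 to 27123 genes and its prior degrees of freedom, which were at most 4.5 with the filter, were at least 34.3. With all 24 libraries in 1 fit the siTead1/4 counts were 4 and 1 in C2C12 cells at days 3 and 6, and 0 in PMs at days 0 and 3. With only the 4 libraries compared it was 0 in C2C12 cells at day 3. DESeq2 called 4 and 1 genes in C2C12 cells at days 3 and 6, 1 in PMs at day 6 and 1 for the difference between cell types at day 6. The cause of these changes was not tested.

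Replicate numbers were shared by the groups, but the labels do not tie a number to a batch. Deviations of same-numbered libraries correlated at -0.168 to 0.468 in C2C12 cells and at 0.055 to 0.503 in PMs, over 0.1 in 14 of 15 pairs of groups. With the replicate number as a block the count in PMs at day 6 became 1 (Sln, 1.21, adjusted p 0.000419 by edgeR) and no other count of members called moved by over 1.5 times, and Atp2a2 in C2C12 cells at day 3 turned to -6e-04. With the pairing crossed at day 0 in C2C12 cells, an alternative chosen after seeing the data, the count was 0.

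When each library was left out in turn, the siTead1/4 counts ranged from 0 to 1 in C2C12 cells at day 3 and in PMs at days 0 and 3, and the count for the difference between cell types ranged from 0 to 2 at days 0 and 3. Uncalled siTead1/4 fold changes that changed sign ranged, in C2C12 cells at day 0, from -0.76 to 0.35 for Atp2a1, -1.75 to 0.12 for Cacna1s, -0.38 to 1.24 for Cacng1, -0.60 to 0.60 for Casq2, -0.75 to 0.73 for Jph2 and -0.35 to 0.16 for Ryr1. In C2C12 cells at day 3 they ranged from -0.88 to 0.67 for Atp2a2 and -0.85 to 0.23 for Trdn, and at day 6 from -0.41 to 0.25 for Trdn. In PMs the range was -0.47 to 0.18 for Ryr1 at day 0 and -0.15 to 0.0496 for Casq1 at day 3. At day 6 in PMs it was -0.29 to 0.065 for Atp2a1, -0.46 to 0.10 for Cacna1s, -0.17 to 0.11 for Casq1, -0.19 to 0.27 for Casq2, -0.31 to 0.10 for Jph2 and -0.31 to 0.11 for Ryr1. The differences between cell types ranged at day 3 from -1.27 to 0.32 for Atp2a2, -0.0913 to 0.49 for Cacng1, -0.049 to 0.19 for Jph2 and -0.11 to 0.999 for Trdn, and at day 6 from -0.0877 to 0.39 for Jph2. Over all alternatives, 1091 gene values kept their direction and their side of the threshold, 24 became called, 21 lost a call and 30 changed sign. Sln in C2C12 cells and other genes near the floor are limited by depth.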
